A study of Homo sapiens with 21 samples.

Results

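This comparison sets NLF cells in which YAP1 was targeted with Cas9 (the line YAPKO1) against NLF cells carrying Cas9 and a scrambled guide (the line sgCON), both grown with trametinib. Its members are 6 of the 21 libraries of the series: 3 of YAPKO1 and 3 of sgCON. NLF is an established human neuroblastoma cell line, and trametinib inhibits the kinases MEK1 and MEK2. Both groups received 20 nM trametinib for 72 h. The remaining libraries serve for comparison. They are YAPKO1 and sgCON grown with DMSO, the solvent of the drug, a second knockout line (YAPKO2) made with another guide, and the parental cells. There are 3 libraries of each line and treatment. All 21 libraries also entered the scaling, the filter on low values and the fit, and so set the spread behind every p-value. The labels give 72 h for the DMSO groups of sgCON and of both knockout lines. For the parental cells the labels give DMSO and no treatment time. DMSO was given at 0.01% in the sample labels, and the series text gives another value. The sgCON line was made with a lentivirus that carries Cas9 and the scrambled guide, per the series text, and whether cells without the construct remained was not analysed here. Whether a line was grown from 1 clone is not given in the sources used here, so loss of YAP1 and any other difference between the cells of the lines cannot be told apart. That the replicates come from separate cultures is not stated in the labels. The p-values then measure only the spread between replicate libraries, pooled over all 21, which may be technical.

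YAP1 encodes YAP, a transcriptional coactivator that has no DNA-binding domain of its own and acts mainly through the TEAD transcription factors. The kinases of the Hippo pathway phosphorylate YAP and its paralogue TAZ (the gene WWTR1), which keeps them out of the nucleus. MEK passes signals from RAS and RAF to ERK, and neuroblastomas with RAS pathway mutations are a setting in which MEK inhibitors have been tried. The series concerns the part YAP plays in resistance to trametinib, and this comparison asks how the knockout line and its control differ while the drug is present.

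The guide sequences define the lines, and are shown 5′ to 3′ with the adjacent motif that Cas9 requires (PAM) in capitals.
YAPKO1: cgccgtcatgaaccccaagaCGG
YAPKO2: gtgcacgatctgatgcccggCGG
sgCON: gcactcacatcgctacatca
The YAPKO1 target lies at chr11:102111058-102111077 (GRCh38) on the strand of YAP1. It falls within coding sequence, in exon 1, for 7 of 11 YAP1 transcripts in the annotation. The YAPKO2 target lies at chr11:102110997-102111016 on the opposite strand of the same exon, and the starts of the sites are 61 bases apart. The scrambled guide had 0 exact matches in the annotated transcripts, and its PAM is not shown because it has no target there.

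Values are FPKM (fragments mapped to a gene, relative to transcript length and library size) divided by 1 scaling factor per library, and a change is the difference of group means of log2(FPKM + 0.5), YAPKO1 minus sgCON, a scale on which changes of weakly expressed genes come out too small. Read counts are not given by these values, so the depth is unknown; a rough estimate from the lowest values put the 6 libraries between 0.917 and 1.05 times a parental library. Each of the 6 had 13925 to 14224 genes at 1 FPKM or more. The composition of the libraries moved with the groups. Protein-coding genes took 41.2% to 52.4% of the FPKM in sgCON and 56.7% to 58.6% in YAPKO1, and short non-coding RNA genes 21.7% to 27.0% in sgCON and 20.0% to 21.5% in YAPKO1, so the groups did not overlap on either measure; the part of this in single results was not tested. The libraries differed in how strongly GC-rich transcripts were represented. The median deviation of GC-rich protein-coding genes (transcript GC of 56.6% or more) minus that of GC-poor ones (41.7% or less) ran from -0.28 to -0.15 on the log2 scale in sgCON. In YAPKO1 it was 0.38, -0.07 and 0.52, so the groups did not overlap. Across 15615 genes the change correlated with transcript GC by a Spearman rho of 0.357, a description across genes that are not independent replicates. The part of GC content in single results was not tested, and counts after a GC correction are given beside each list whose count it moved by over 1.5 times. Of 10 tested sympathetic neuroblastoma markers, 7 were higher in YAPKO1 (70.0%, against 7.77% of all genes tested) and 0 lower. After GC correction 2 were lower. The blood cell and endothelial markers (7 and 5 genes in the table) were below 1 FPKM in all 6 libraries. The epithelial markers summed to at most 2.49 FPKM per library, with 4 of 8 listed at 0 throughout.

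YAP1 RNA was lower in the knockout line and still present, with a mean 2.03-fold lower. Its scaled FPKM in sgCON were 22.7, 24.5 and 22.7, and in YAPKO1 12.5, 11.9 and 10.1. The groups did not overlap, and the log2 change was -0.99 (SE 0.23, limma adjusted p = 0.00709). In DMSO the change was -1.12 (adjusted p = 0.00365), and the response difference between the lines was 0.12 (adjusted p = 1). YAPKO2 held less YAP1 RNA in trametinib (2.73, 1.16 and 3.69), below every YAPKO1 library (-2.08 against YAPKO1, adjusted p = 7.29e-06). These are RNA levels; a guide that shifts the reading frame need not change them, and protein was not analysed here.

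With trametinib present, 1259 genes were higher and 1152 lower in YAPKO1 than in sgCON, of 16194 tested (limma, adjusted p under 0.05). The 2411 called genes are 14.9% of those tested, 7.77% being higher and 7.11% lower. Counts of list members below are to be set beside these shares. Changes of at least 1 on the log2 scale were found for 361 of the higher and 308 of the lower genes, and changes of at least 2 for 69 and 39. The number called fell to 1572 without sgCON replicate 1, 1496 without sgCON replicate 2, 1588 without YAPKO1 replicate 1 and 1418 without YAPKO1 replicate 3.

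The 15 largest falls are described first. S100A10, the partner of annexin A2, stood at 68.1, 73.2 and 84.4 FPKM in sgCON and 1.63, 0.633 and 1.71 in YAPKO1. This is a 56.8-fold lower mean and a log2 change of -5.43 (SE 0.29, adjusted p = 8.92e-10). Annexin A1 (ANXA1), a calcium-dependent phospholipid-binding protein, went from 7.23, 8.37 and 12.6 to 0.285, 0.163 and 0 (-3.92). CAVIN1, which coats caveolae, the small pits of the plasma membrane, went from 5.08, 5.17 and 7.02 to 0.0294, 0.0288 and 0.0284 (-3.55). CAVIN2 of the same coat changed by -2.32. The keratin gene KRT18 went from 12.8, 14.3 and 14.8 to 0.795, 0.345 and 0.852 (-3.66), and its pairing partner KRT8 from 1.72, 1.93 and 2.18 to 0.609, 0.94 and 0.53 (-1.04). For each of these genes every YAPKO1 library lay below every sgCON library. The rule for the 15 largest falls required this, and 20.8% of all genes tested were lower without overlap.

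Further large falls were seen in secreted and cell-surface genes. The small proteoglycan decorin (DCN) stood at 31.3, 30.5 and 30.003 in sgCON and 5.27, 5.19 and 2.93 in YAPKO1 (-2.69). Periostin (POSTN), a matrix glycoprotein, went from 3.13, 5.37 and 5.65 to 0.0883, 0.326 and 0.0946 (-2.94). CRIM1, a membrane protein that binds BMP ligands, went from 5.1, 6.61 and 7.05 to 0.0196, 0.0863 and 0 (-3.65). The receptor kinase ERBB4 went from 10.96, 9.76 and 11.2 to 1.33, 1.69 and 1.2 (-2.55), and the membrane metalloprotease MME from 20.5, 20.1 and 23.2 to 2.63, 3.75 and 3.43 (-2.54). The adhesion molecule ALCAM went from 46.3, 53.4 and 52.6 to 6.02, 10.9 and 7.56 (-2.60). MOXD1, a relative of dopamine beta-hydroxylase, fell from a mean of 20.2 to 1.72 (-3.22). The scavenger receptor CD36 (-2.72), the ubiquitin ligase MID1 (-2.38), the thyroid hormone deiodinase DIO2 (-2.33) and the muscarinic receptor CHRM3 (-2.32) complete the 15 largest falls. In parental cells, which had no trametinib, several of these genes were higher than in either line: POSTN averaged 68.4, CD36 81.1 and ANXA1 78.5. KRT18 (2.85) and CRIM1 (0.737) were lower in parental cells than in sgCON.

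Among the rises, the largest was that of syndecan 2 (SDC2), a transmembrane heparan sulfate proteoglycan. It stood at 0.458, 0.793 and 0.566 in sgCON and 70.6, 69.9 and 67.6 in YAPKO1, a 115-fold higher mean (5.99, SE 0.24, adjusted p = 4.04e-11). The homeodomain factor PRRX1 rose from 0.153, 0.166 and 0.106 to 10.9, 10.1 and 8.27 (3.99). The procollagen-processing protease ADAMTS2 rose from 0.0381, 0.157 and 0.0864 to 14.04, 12.1 and 13.01 (4.51). The PACAP receptor ADCYAP1R1 rose from 0.886, 1.27 and 0.489 to 20.96, 17.6 and 19.9 (3.89), and the lysophosphatidic acid receptor LPAR3 from 0, 0.0587 and 0.106 to 6.19, 5.87 and 6.72 (3.61). The neurotrophin receptor NTRK3 rose from 2.29, 1.996 and 2.52 to 34.001, 17.8 and 22.1 (3.14). HAND1, a basic helix-loop-helix factor of the sympathetic lineage and the heart, rose from 3.35, 2.94 and 2.51 to 37.6, 36.3 and 40.1 (3.49). The troponin gene TNNI1 rose from a mean of 0.965 to 17.3 (3.59), and MARCH11, a membrane-associated ubiquitin ligase, from 0.438, 0.714 and 0.797 to 11.6, 8.89 and 8.41 (3.14). FAM163A (3.46), HMCN2 (3.41) and ATRNL1 (3.29) rose as well.

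Of the rises given here 2 need a limit. GAGE1 (0.801, 0.793 and 0.0864 in sgCON, 15.98, 17.2 and 13.5 in YAPKO1) has near-identical copies in the genome, between which the quantification could split reads, so its change of 4.004 is uncertain. NEK9, a kinase of mitosis, stood at 0.114, 0.0587 and 0.125 in sgCON and 8.22, 8.34 and 7.15 in YAPKO1 (3.81), while parental cells averaged 8.21. For NEK9 the sgCON level lay apart from the parental one, a difference that was not tested. All 30 largest changes were called under each of the alternative settings run and without each library in turn.

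**Figure D1:**
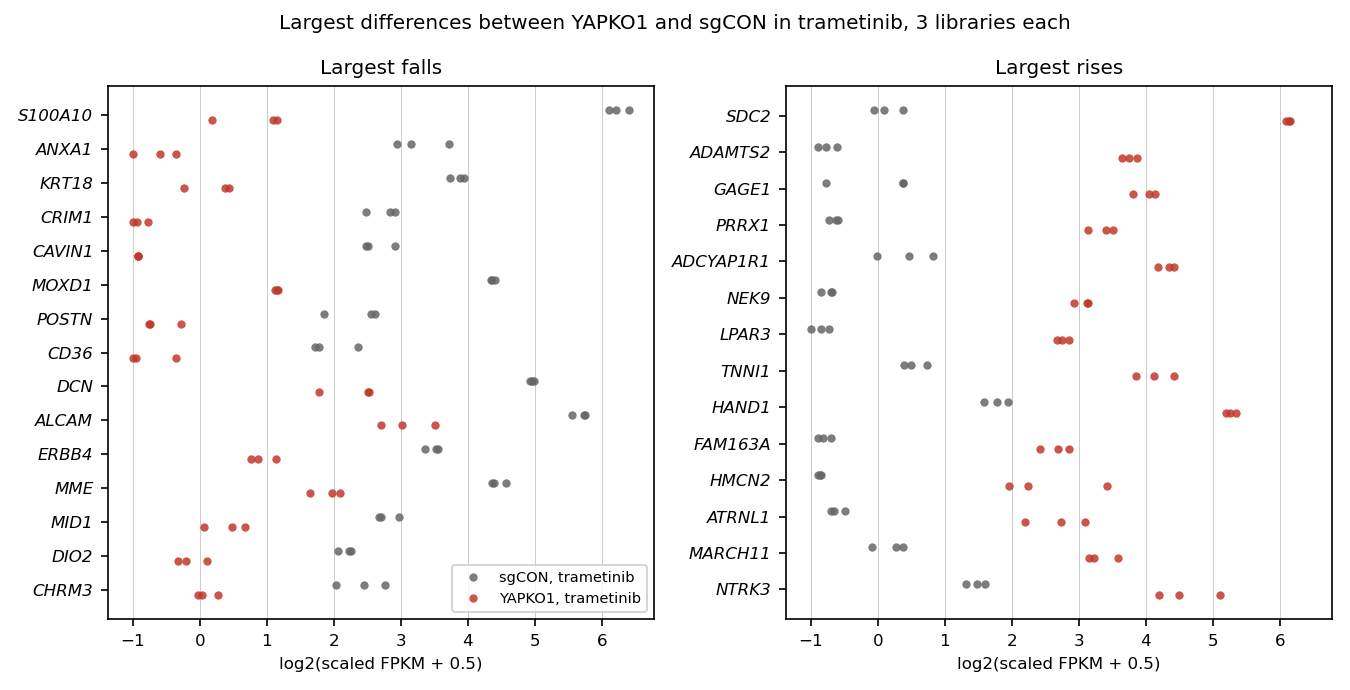
Log2(scaled FPKM + 0.5) of the 15 genes with the largest falls (left) and 14 of the 15 with the largest rises (right), 1 point per library, grey for sgCON and red for YAPKO1 in trametinib. In every row the 3 red points lie clear of the 3 grey ones, which the rule for choosing these genes required. Of all genes tested 20.2% were higher and 20.8% lower without overlap.

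The next genes are those through which YAP acts. The group tested held 7 members among YAP1, TAZ, the TEAD factors and the TEAD-binding VGLL proteins. Of these 1 was higher (14.3%, against 7.77% of all genes) and 2 lower (28.6%, against 7.11%). The targeted gene YAP1 is 1 of the lower ones. TEAD3 fell from 7.63, 6.1 and 7.25 to 4.4, 3.9 and 4.13 (-0.69, adjusted p = 0.00313), and VGLL4, which competes with YAP for TEAD, rose from 15.6, 14.7 and 15.6 to 25.3, 23.6 and 24.6 (0.66). WWTR1 had a change of -0.22 (adjusted p = 0.413) and TEAD1 one of -0.30 (adjusted p = 0.39). The WWTR1 value was 0.0195 after GC correction.

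Of 18 tested YAP/TAZ-TEAD target genes, 1 was higher and 5 lower, with a median change of -0.26 (all genes tested 0). The lower shares were 27.8% of this list and 7.11% of all genes. The lowest value of the list, -3.65, was that of CRIM1, given above, which was also lower in parental cells than in sgCON. The angiomotin relative AMOTL2 went from 8.22, 12.1 and 12.1 to 8.09, 5.6 and 6.95 (-0.61), and its groups were close, with the lowest sgCON library just above the highest YAPKO1 library. The phosphatase PTPN14 fell from 7.43, 9.07 and 7.94 to 3.99, 4.95 and 3.71 (-0.88), and the Hippo kinase LATS2 from 2.85, 3.32 and 3.24 to 1.67, 2.38 and 1.66 (-0.61, not called when only the groups compared were fitted). GADD45A fell from 53.8, 53.3 and 58.5 to 29.7, 32.3 and 31.8 (-0.81); it is also a p53 target. IGFBP3 rose from 0.276, 0.235 and 0.0384 to 2.29, 1.57 and 1.04 (1.62), but it passed the filter on low values only through the YAPKO1 libraries, so it had to differ, and it was not tested without any 1 of them. The standard reporters were low in both groups: CYR61 stood at 1.21, 1.07 and 0.969 in sgCON and 0.923, 0.72 and 0.965 in YAPKO1 (-0.21, adjusted p = 0.56), and CTGF at 0.381, 0.274 and 0.835 and 0.334, 0.355 and 0.18 (-0.30, adjusted p = 0.439). Of 26 tested genes of the Hippo cascade, 0 were higher and 6 lower (23.1%, against 7.11% of all genes), with a median of -0.22. The higher count was 1 without sgCON replicate 3 and 2 after GC correction. The lower ones include the scaffold WWC3 (-0.60) and, beside AMOTL2, PTPN14 and LATS2, the genes AMOT (-0.62) and AJUBA (-0.67). The AMOT call was lost without sgCON replicate 1 or 3 or YAPKO1 replicate 2 or 3, and the AJUBA call without sgCON replicate 3 or YAPKO1 replicate 1.

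Because these targets are defined by TEAD binding, their RefSeq promoters (250 bases before to 50 after the start, GRCh38.p14) were searched on both strands for the TEAD core motif GGAATG or its reverse complement CATTCC. It was found in 14.03% of 35116 promoters, and in any promoter of 16.7% of 27305 genes. Of the 22 target genes 16 were matched to the promoter table, and 9 of these held the motif. Stretches from a pair of lowered genes and from CTGF, which was not called, are shown with the motif in capitals, on the strand of the gene.
AMOTL2: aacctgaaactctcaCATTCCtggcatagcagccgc
PTPN14: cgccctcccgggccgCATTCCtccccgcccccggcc
CTGF: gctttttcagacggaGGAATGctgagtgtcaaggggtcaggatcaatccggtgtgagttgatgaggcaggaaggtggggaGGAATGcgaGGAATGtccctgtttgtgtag
They lie at chr3:134374496-134374531, chr1:214551782-214551817 and chr6:131951447-131951556. The CTGF stretch holds the motif at 3 places. A match is a description of the letters and not evidence that a factor binds there.

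ERK output genes are those known to rise when the MEK-ERK pathway is active, and the lines differed in them gene by gene. Of 21 tested ERK output genes, 3 were higher (14.3%, against 7.77% of all genes) and 5 lower (23.8%, against 7.11%). After GC correction 8 were lower, and the median before it was -0.20. The ERK phosphatase DUSP6 stood at 2.66, 3.56 and 1.84 in sgCON and 0.461, 0.163 and 0.653 in YAPKO1 (-1.78, adjusted p = 5.61e-06). The ephrin receptor EPHA2 fell from 14.5, 13.005 and 16.5 to 3.01, 1.79 and 3.6 (-2.24), the AP-1 factor FOSL1 from 4.49, 3.94 and 4.62 to 1.91, 1.3 and 1.77 (-1.18), the cytokine LIF from 2.48, 2.58 and 2.7 to 0.501, 1.7 and 0.587 (-1.21) and the urokinase receptor PLAUR from 28.4, 31.4 and 28.4 to 20.2, 18.8 and 21.6 (-0.53). FOS rose from 0.219, 0.45 and 0.211 to 1.87, 1.54 and 1.003 (1.303), and the higher count was 1 in place of 3 when any 1 library other than YAPKO1 replicate 1 was left out. FOS lies in a run of mostly higher genes on chromosome 14 that is described below. Other ERK outputs did not pass the test. ETV4 had a change of 0.13 (adjusted p = 0.682), ETV5 -0.07 (0.866), SPRY2 -0.05 (0.799), SPRY4 0.32 (0.38) and CCND1 0.12 (0.425). The signs for ETV4, ETV5 and SPRY2 turned under some settings. Of 21 genes of the RAS-MAPK cascade itself, 2 were higher (9.52%, against 7.77% of all genes) and 0 lower, with a median of 0.05. After GC correction 3 were higher and 4 lower, and the median was -0.03. The higher ones are the RAS relative MRAS, from 0.677, 1.15 and 0.355 to 4.3, 5.56 and 8.32 (2.42), and the RAS-GTPase activator NF1 (0.70), whose call was lost without sgCON replicate 1.

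Receptor tyrosine kinases pass growth factor signals to RAS. Of 25 tested, 8 were higher (32.0%, against 7.77% of all genes) and 2 lower (8.0%, against 7.11%), with a median of 0.02. After GC correction 4 were lower and the median was -0.08. ALK, a receptor mutated in some neuroblastomas, stood at 0.124, 0.117 and 0.0768 in sgCON and 1.62, 1.92 and 2.4 in YAPKO1 (2.02, adjusted p = 1.33e-07). PDGFRA rose from 0.61, 0.763 and 0.672 to 6.54, 6.07 and 5.2 (2.44) and EPHB2 from 3.75, 3.32 and 3.52 to 10.1, 8.51 and 11.4 (1.38). ERBB2 rose from 2.14, 2.36 and 2.71 to 4.98, 3.7 and 4.4 (0.74) while its relative ERBB4 fell, as given above. PDGFRB (0.74) and MERTK (0.54) were also higher.

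The p53 target genes are those that the tumour suppressor p53 activates after DNA damage and other stress. Of 28 tested members, 22 were lower (78.6%, against 7.11% of all genes) and 0 higher, with a median change of -0.83. The cell cycle inhibitor CDKN1A stood at 342, 326 and 340.4 in sgCON and 82.2, 71.5 and 78.8 in YAPKO1 (-2.11, SE 0.15, adjusted p = 3.74e-08). MDM2, the ubiquitin ligase that degrades p53, went from 211, 219.7 and 213 to 59.8, 95.7 and 74.5 (-1.50). GDF15, a cytokine released under stress, went from 59.3, 56.3 and 62.6 to 13.4, 11.7 and 15.1 (-2.11). The death receptor FAS fell from 4.64, 5.42 and 4.8 to 1.52, 2.01 and 0.766 (-1.55), the mitochondrial reductase FDXR from 68.9, 62.2 and 67.6 to 28.3, 28.2 and 29.3 (-1.20) and the zinc finger gene ZMAT3 from 23.2, 26.7 and 25.5 to 9.47, 10.4 and 6.88 (-1.46). The apoptosis effectors BBC3 (-0.75) and BAX (-0.54) were lower too, the BAX call being lost without sgCON replicate 3 or YAPKO1 replicate 2. TP53I3 was the tested member with a value above 0 (0.09, adjusted p = 0.745). The number lower was 19 to 21 when a library was left out and 24 after GC correction.

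Parental cells place these values. The level summed over all p53 list members in the table, tested or not, was 2069 to 2135 FPKM in the sgCON trametinib libraries, 1063 to 1157 in YAPKO1 and 1136 to 1227 in parental cells without the drug. For 19 of the 22 called members the parental mean in DMSO was nearer to YAPKO1 in DMSO than to sgCON in DMSO. CDKN1A averaged 123 in parental cells, GDF15 14.6 and MDM2 132. By these sums sgCON stood above both other groups, and whether the difference arose in YAPKO1 or in sgCON cannot be told apart from this pair of lines.

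**Figure D2:**
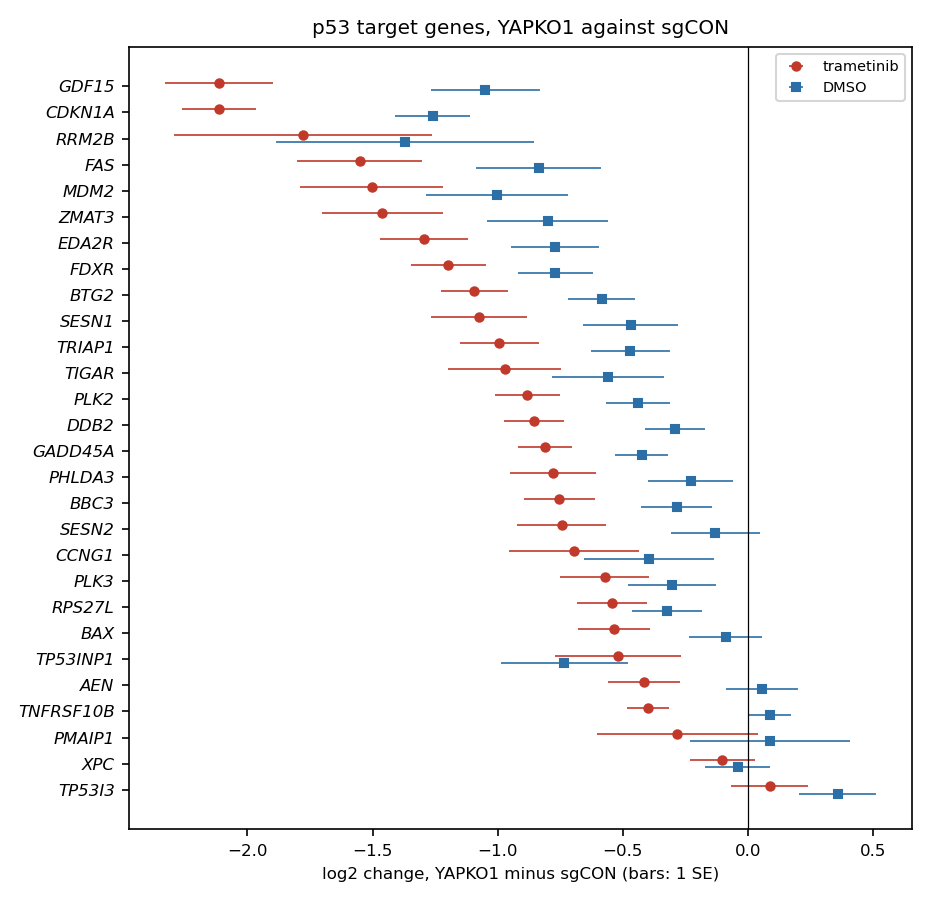
Log2 change of the 28 tested p53 target genes, YAPKO1 minus sgCON, in trametinib (red circles) and DMSO (blue squares); bars are 1 SE. All but TP53I3 lie below 0 in trametinib, and the trametinib median is -0.83 against -0.43 in DMSO.

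Regulators of the G1 phase form the next list, which shares CDKN1A with the p53 target genes. Of 23 tested, 2 were higher (8.70%, near the 7.77% of all genes). The lower ones numbered 6, CDKN1A among them (26.1%, against 7.11%), and the median was -0.12. The CDK4/6 inhibitor gene CDKN2A rose from 1.27, 1.25 and 1.4 to 6.92, 4.33 and 4.22 (1.61), while the repressor E2F7 fell from 12.6, 12.6 and 11.9 to 4.86, 6.35 and 5.89 (-1.06) and cyclin D3 (CCND3) from 16.4, 16.2 and 15.2 to 10.002, 10.4 and 10.8 (-0.59). E2F7 and CDKN1A are themselves known p53 targets.

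Before GC correction, genes of DNA replication and mitosis were lower where they were called. Of 50 DNA replication genes 0 were higher and 10 lower (20.0%, against 7.11% of all genes), with a median of -0.15. PCNA, the sliding clamp of the replication fork, fell from 315, 322 and 335 to 154, 171 and 141 (-1.06), and the exonuclease gene EXO1 from 58.1, 66.2 and 60.4 to 36.1, 40.7 and 30.4 (-0.78). Of 42 mitosis genes 0 were higher and 8 lower (19.05%, against 7.11% of all genes), with a median of -0.33. PRC1, a protein of the central spindle, fell from 116, 124 and 117 to 85.7, 90.2 and 80.8 (-0.47), and the proliferation marker MKI67 from 8.49, 8.75 and 8.87 to 5.35, 5.72 and 3.24 (-0.84). In DMSO the medians of these lists were 0.08 and 0.01. The counts depend on libraries and on GC. The replication count was 6 without sgCON replicate 3 or YAPKO1 replicate 3 and 17 after GC correction. The mitosis count was 5 without any 1 sgCON library, 3 without YAPKO1 replicate 3, and 19 after GC correction. After that correction 1 mitosis gene was higher. The median transcript GC of the lists was 46.7% and 43.8%, against 48.1% for all genes tested.

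Cytosolic ribosomal proteins build the ribosome that translates nuclear-encoded messages. Of 52 tested ribosomal protein genes, 24 were higher (46.2%, against 7.77% of all genes) and 0 lower, with a median of 0.39. RPS13 rose from 1131, 1165 and 1235 to 1758, 1630.4 and 1764 (0.55), and RPS27 from 4918, 4823 and 5550.5 to 8276, 7949 and 8034 (0.67), a call lost with quantile normalization. RPL30 rose from 3294, 3303 and 3599.6 to 5025, 4692 and 4456 (0.47). The sum of the list was 110629 to 120272 FPKM in sgCON, 142132 to 155740 in YAPKO1 and 74616 to 82242 in parental cells. The count was 8 without sgCON replicate 1 or YAPKO1 replicate 1, 12 without sgCON replicate 2 or YAPKO1 replicate 3, 31 after GC correction, 12 without the filter on low values, and 9 with quantile normalization, under which 1 was lower. Of 40 MYC target and ribosome biogenesis genes, 1 was higher (2.5%, against 7.77% of all genes) and 2 lower (5%, against 7.11%). The median of 0.01 turned to -0.03 after GC correction. The lower count was 1 without any 1 library other than YAPKO1 replicate 2, and after GC correction 3 were higher and 4 lower. MYCN, the oncogene that marks high-risk neuroblastoma, rose from 54.9, 49.8 and 51.3 to 81.9, 71.98 and 87.3 (0.62, adjusted p = 0.00228).

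Of the 13 mitochondrially encoded protein genes 0 were higher and 7 lower (53.8%, against 7.11% of all genes), with a median of -0.53. MT-ATP6 went from 227, 252 and 189.6 to 114, 143 and 138 (-0.75), and MT-CO1 from 1666, 1765 and 1078 to 874, 862 and 965 (-0.71), its lowest sgCON library lying close to the YAPKO1 libraries. The count was 3 without sgCON replicate 1 or YAPKO1 replicate 1, 2 without sgCON replicate 2, and 4 after GC correction. These genes took 1.06% to 1.47% of the protein-coding FPKM in sgCON and 0.864% to 0.998% in YAPKO1, and the part of RNA quality was not tested.

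The adrenergic state is the sympathetic-like identity of neuroblastoma cells. Of 23 tested genes of this state, 10 were higher (43.5%, against 7.77% of all genes) and 2 lower (8.70%, against 7.11%). A further 11 were not called, and the median was 0.40. The lower count was 4 after GC correction and 1 without YAPKO1 replicate 3. Dopamine beta-hydroxylase (DBH), which makes noradrenaline, rose from 0.591, 0.166 and 0.346 to 5.65, 5.44 and 7.18 (2.95, SE 0.23, adjusted p = 1.33e-07). The decarboxylase gene DDC, a step earlier in catecholamine synthesis, rose from 5.6, 7.82 and 6.17 to 24.7, 19.5 and 26.2 (1.77), and the granule protein gene CHGA from 0.772, 0.665 and 0.221 to 2.002, 1.996 and 2.67 (1.40). Of the transcription factors, ISL1 (0.59) and EYA1 (0.86) rose, while HAND2 had a change of -0.05 (adjusted p = 0.819; its sign turned without sgCON replicate 3 or YAPKO1 replicate 2) and GATA3 one of -0.27 (adjusted p = 0.0941). GCH1, which makes the cofactor of tyrosine hydroxylase, fell from 3.58, 3.36 and 3.25 to 1.76, 1.98 and 1.67 (-0.76). The number higher was 10 or 11 without each library in turn.

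The mesenchymal state, the alternative identity of these cells, had called genes in both directions. Of 20 tested genes 4 were higher (20.0%, against 7.77% of all genes) and 2 lower (10.0%, against 7.11%). The median of 0.01 turned negative after GC correction and without sgCON replicate 1 or 2 or YAPKO1 replicate 1 or 3. PRRX1, given above, and SNAI2, from 1.63, 1.996 and 1.67 to 6.01, 5.85 and 4.6 (1.40), rose, and FOSL1 and YAP1 fell. YAP1 is the gene targeted in YAPKO1, so its fall is no separate result about this state, and FOSL1 is the other lower member. The fibroblast markers, which mesenchymal neuroblastoma cells share, split as well: of 8 tested 2 were higher (PDGFRA and PDGFRB) and 5 lower. They summed to 477 to 604 FPKM in sgCON, 197 to 276 in YAPKO1 and 886 to 952 in parental cells, and DCN and LUM are among the lower ones. The LUM call (-2.01) was lost in several settings, and in these bulk libraries fewer cells of a type and less RNA per cell cannot be told apart. The fibroblast count was 3 in place of 5 without sgCON replicate 1 or 3.

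Neuronal genes changed in both directions. Of 22 genes of neuronal differentiation 8 were higher (36.4%, against 7.77% of all genes) and 4 lower (18.2%, against 7.11%), with a median of 0.26. The lower count was 2 without sgCON replicate 1 or 2 or YAPKO1 replicate 1 or 2. The neurogenic factor NEUROD1 rose from 1.33, 2.01 and 0.979 to 13.97, 17.9 and 14.9 (3.08), and the peripheral intermediate filament gene PRPH from 29.3, 29.9 and 29.3 to 126, 95.2 and 124 (1.93). The RNA-binding protein gene ELAVL4 rose from 35.05, 34.7 and 30.03 to 85.2, 105 and 70.9 (1.36). The microtubule regulator STMN2 fell from 72.1, 76.7 and 68.7 to 14.6, 22.5 and 19.5 (-1.93) and the growth cone gene GAP43 from 135, 134 and 154 to 106, 97.1 and 82.1 (-0.57). Of 33 axon guidance genes 10 were higher (30.3%) and 3 lower (9.09%), with a median of 0.21. After GC correction 5 were lower. The receptor PLXNA2 rose from 5.5, 5.34 and 3.96 to 15.8, 11.3 and 14.2 (1.39), while the receptor NRP1 fell from 31.6, 27.7 and 39.4 to 17.9, 16.2 and 17.3 (-0.91). Of 26 ion channel genes 7 were higher (26.9%) and 2 lower (7.69%), with a median of 0.38. The lower count was 1 after GC correction or without YAPKO1 replicate 3. The nicotinic receptor subunit CHRNA3 rose from 56.5, 46.03 and 45.4 to 116, 129 and 132 (1.35), and the sodium channel SCN9A fell from 46.4, 49.5 and 39.9 to 9.48, 13.7 and 11.8 (-1.92).

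Matrix and cytoskeleton genes split in the same way. Of 34 matrix glycoprotein, collagen and proteoglycan genes 4 were higher (11.8%, against 7.77% of all genes) and 10 lower (29.4%, against 7.11%). The median was -0.15, and the higher count was 2 without sgCON replicate 1 or YAPKO1 replicate 1 or 3. Matrilin 2 (MATN2) fell from 7.77, 10.7 and 12.5 to 2.79, 2.7 and 1.78 (-1.88), COL1A1 from 12.2, 11.9 and 13.6 to 5.74, 4.32 and 6.67 (-1.12), SPARC from 161, 158 and 179.9 to 105, 97.2 and 96.6 (-0.73) and tenascin C (TNC) from 8.93, 10.4 and 9.13 to 4.3, 4.41 and 5.49 (-0.94). SDC2 rose as given above. Of 29 genes of intermediate filaments and actin 4 were higher (13.8%) and 7 lower (24.1%). Desmin (DES) rose from 2.4, 2.59 and 3.35 to 21.7, 16.8 and 19.98 (2.61). Vimentin (VIM) had a change of -0.03 (adjusted p = 0.901). Of 21 annexin, S100 and caveolae genes 4 were higher (19.05%) and 5 lower (23.8%). The median of 0.01 turned to -0.08 after GC correction, and the large falls of S100A10, ANXA1 and CAVIN1 stand beside members that rose. The higher count of this list was 2 without sgCON replicate 2.

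Of 30 glycolysis and hypoxia genes 10 were higher (33.3%, against 7.77% of all genes) and 1 lower (3.33%, against 7.11%). The median was 0.25, and 6 were higher without YAPKO1 replicate 3. The lower count was 0 without any 1 of the 6 libraries and 2 after GC correction. The hypoxia-inducible genes VEGFA, from 5.45, 4.77 and 2.96 to 10.5, 9.95 and 10.2 (1.17), and NDRG1, from 4.7, 3.97 and 4.42 to 16.4, 11.8 and 12.2 (1.51), rose most among them, with adrenomedullin (ADM, 1.35).

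**Figure D3:**
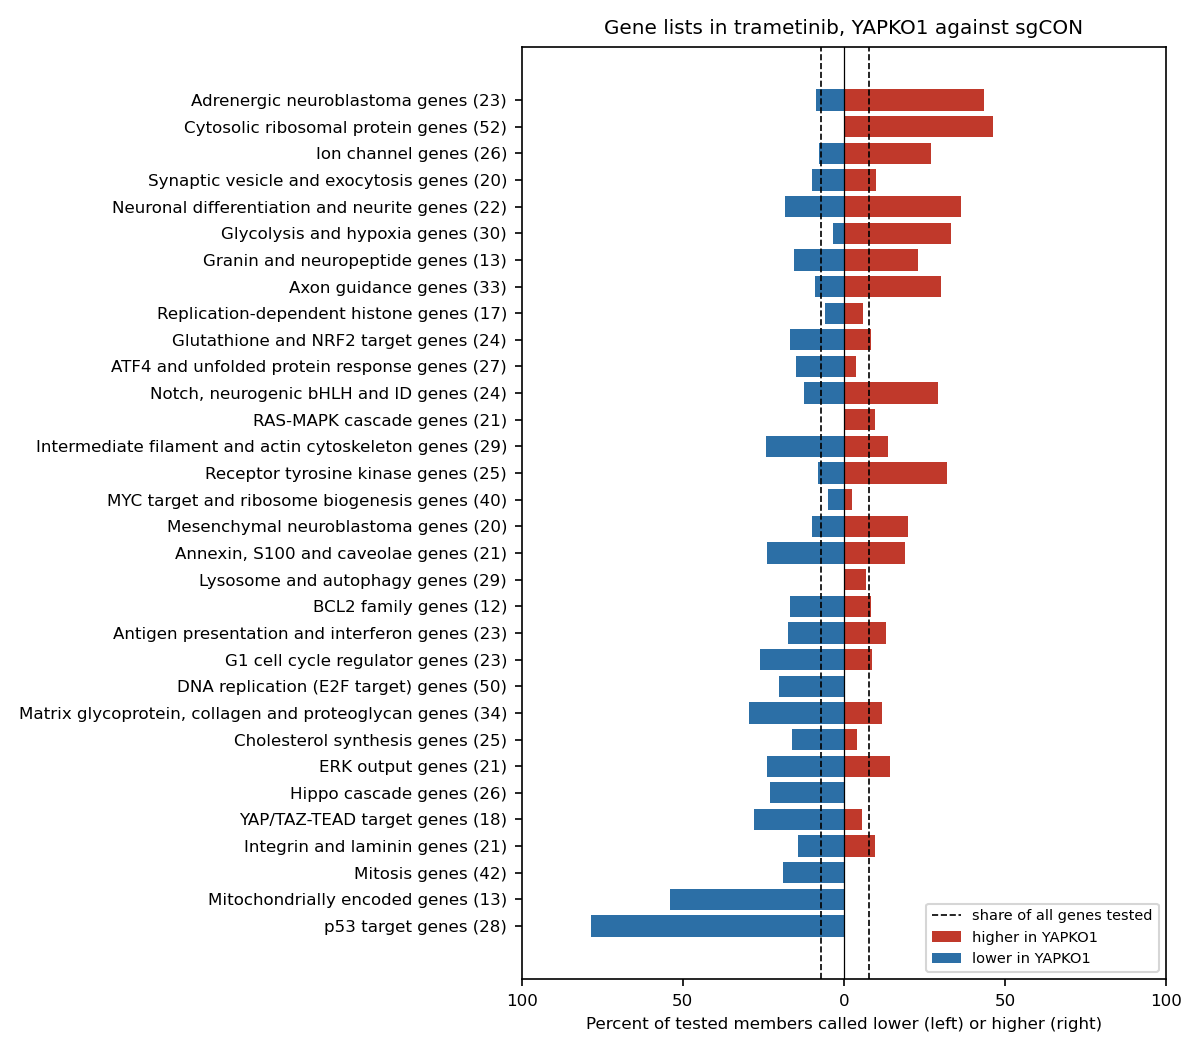
Percent of the tested members of each gene list called lower (blue, left) or higher (red, right) in YAPKO1, with the number tested in brackets and dashed lines at the shares of all genes tested (7.11% lower and 7.77% higher). The p53 target genes have the longest blue bar (78.6%) and the cytosolic ribosomal protein genes the longest red one (46.2%).

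The same lines grown without the drug share no library with this comparison. The same fit gave both results, with a shared estimate of the spread of each gene, so the overlap of calls is in part built in. In DMSO 1927 genes were called (11.9%), 993 higher (6.13%) and 934 lower (5.77%). Of the 2411 genes called in trametinib, 1136 (47.1%) were also called in DMSO in the same direction, which is 59.0% of the DMSO calls, and 94.4% had the same sign there, against 75.2% of all genes tested. All of the 15 largest rises and 13 of the 15 largest falls were among the genes called in both; DCN (-0.14 in DMSO, adjusted p = 0.585) and ALCAM (-1.11, adjusted p = 0.118) were not. Across genes the changes correlated with a Pearson r of 0.616, a description over genes. The genes called in opposite directions numbered 3, namely KDM5B (0.51 in trametinib and -0.38 in DMSO), DEPTOR (0.50 and -0.52) and MAOA (0.46 and -0.36). The parental mean was nearer to YAPKO1 than to sgCON in DMSO for 37.0% of the genes called in trametinib and 38.8% of all genes tested.

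**Figure D4:**
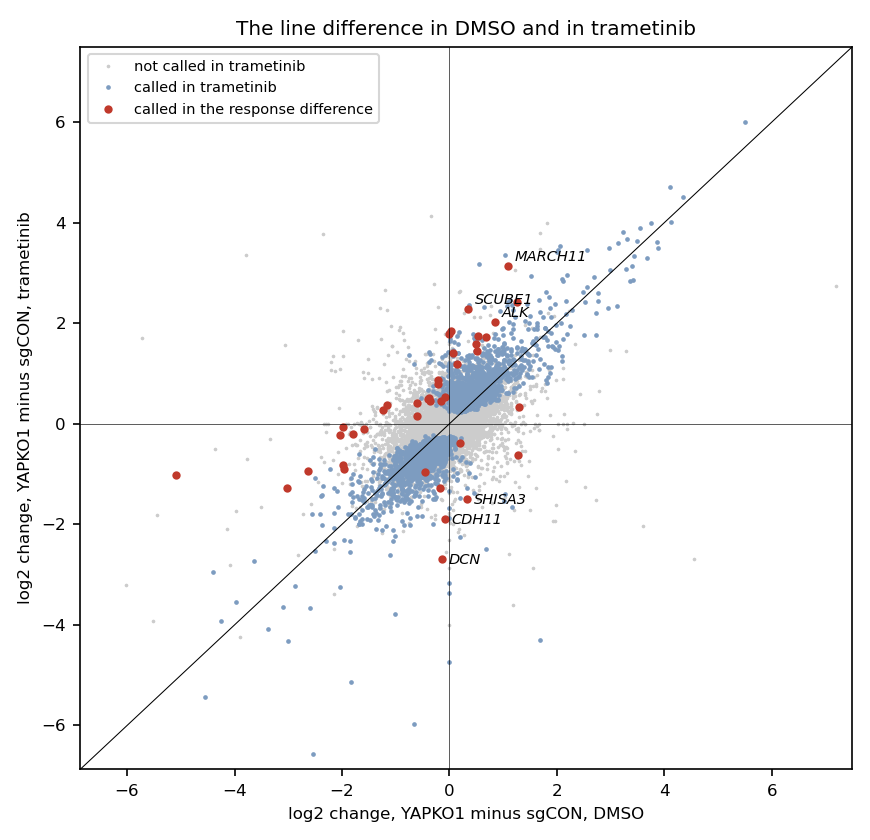
Log2 change of each tested gene, YAPKO1 minus sgCON, in DMSO (horizontal) and trametinib (vertical); blue points are called in trametinib, red ones in the test of the response difference, and the line marks equal changes. Most blue points lie along the line, and DCN, at -0.14 in DMSO and -2.69 in trametinib, lies far below it.

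Whether the line difference itself differed between trametinib and DMSO was tested for each gene. Of 16194 genes 40 were called (0.247%), 32 with a more positive value in trametinib (0.198%) and 8 with a more negative one (0.0494%); 1170 had an unadjusted p under 0.05. After GC correction 153 genes were called, 56.2% of them with a more positive value in place of 80.0%. Of the 40, 30 were also called in the main comparison. Both tests use the same 6 trametinib libraries, so this overlap is in part built in. DCN stood at 11.98, 15.8 and 13.9 in sgCON and 14.6, 11.2 and 11.8 in YAPKO1 in DMSO, so the lines overlapped without the drug. With it sgCON had 31.3, 30.5 and 30.003 and YAPKO1 5.27, 5.19 and 2.93, and the response difference was -2.54 (SE 0.22, adjusted p = 1.2e-05). CDH11, a cadherin of mesenchymal cells, behaved alike in direction. It stood at 13.8, 11.8 and 12.6 and 12.7, 13.01 and 10.2 in DMSO and at 12.2, 9.61 and 10.97 and 3.21, 1.83 and 2.85 in trametinib (-1.80, adjusted p = 0.0377). SHISA3, an inhibitor of Wnt and FGF signalling, had 5.52, 4.999 and 4.9 and 5.9, 7.57 and 6.36 in DMSO and 4.96, 6.64 and 6.75 and 2.25, 1.33 and 2.04 in trametinib (-1.82, adjusted p = 0.00751).

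On the other side, SCUBE1, a secreted and membrane-bound glycoprotein, stood at 0.471, 0.585 and 1.22 in sgCON and 1.34, 0.808 and 1.05 in YAPKO1 in DMSO, and at 1.09, 1.07 and 0.739 and 7.16, 5.85 and 6.85 in trametinib (1.94, adjusted p = 0.0359). ALK stood at 0.0491, 0.0202 and 0.0498 and 0.508, 0.465 and 0.445 in DMSO, and its response difference was 1.17 (adjusted p = 0.0377). MARCH11 stood at 3.58, 3.27 and 3.09 in sgCON and 6.62, 7.05 and 9.4 in YAPKO1 in DMSO; with trametinib sgCON was lower than in DMSO and YAPKO1 was not (2.05, adjusted p = 0.00366). KCNAB1, a subunit of potassium channels, was lower in YAPKO1 under both conditions. Its gap was narrower with the drug, with 9.31, 9.58 and 10.1 and 0.747, 0.748 and 0.769 in DMSO against 4.58, 3.69 and 4.7 and 1.37, 2.19 and 1.05 in trametinib (1.74). Of the 28 p53 target genes 0 were called in limma's test of the response difference, and 14 had an unadjusted p under 0.05; their median response difference was -0.47.

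The second knockout line was set beside YAPKO1. It shares the sgCON libraries, so the values are set side by side and no overlap is counted. Against sgCON in trametinib 5849 genes were called in YAPKO2 (36.1%), 17.6% higher and 18.5% lower. Between YAPKO2 and YAPKO1 in trametinib 2281 differed (14.1%), 6.44% being higher and 7.64% lower in YAPKO2. Of the 15 largest rises in YAPKO1, 11 differed between the knockout lines, and of the 15 largest falls 8. These genes were picked by the YAPKO1 libraries that this test also uses, so the counts are not independent of the choice. ADAMTS2 was -0.09 and PRRX1 -0.01 in YAPKO2 against sgCON, with tests against YAPKO1 at -4.60 (adjusted p = 2.69e-10) and -4.002 (adjusted p = 7.01e-10). HAND1 was 1.25 in YAPKO2, and TNNI1 1.26. In contrast ADCYAP1R1 was 4.46, NTRK3 3.54 and FAM163A 4.51. Among the falls S100A10 was -7.07, CAVIN1 -3.55 and MOXD1 -5.32 in YAPKO2. DCN went the other way, with 123, 118 and 129 FPKM in YAPKO2 trametinib libraries, a change of 1.99 against sgCON and 4.68 against YAPKO1 (adjusted p = 3.91e-12). STMN2 was 0.81 in YAPKO2 (2.75 against YAPKO1, adjusted p = 3.27e-08). Of the p53 target genes 27 of 28 were lower in YAPKO2, with a median of -1.19, and of the DNA replication genes 44 of 50, with a median of -0.89; 41 of these 50 were lower in YAPKO2 than in YAPKO1.

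In places neighbouring genes shared a direction. A running median over 25 neighbouring protein-coding genes passed 0.4 in size in 7 runs, which were picked after their values were seen and are described without a test. On chromosome 14 the run from FNTB to TTC8 held 96 tested genes, 51 of them higher (8.83% of all protein-coding genes were) and 1 lower, with a median of 0.53 in trametinib and 0.51 in DMSO. In DMSO the median of sgCON minus parental cells over this run was -0.49, and of YAPKO1 minus parental 0.02, so the sgCON median lay apart from the parental level and the YAPKO1 median did not. NEK9 and FOS lie within it, as does DIO2, which fell. The RNA-binding protein gene SLIRP of this run stood at 198, 219 and 209 in sgCON and 357, 405 and 324 in YAPKO1 (0.79).

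Runs of lower genes were found on chromosomes 9 and 20. From KIAA2026 to KIF24 on chromosome 9, 38 of 55 genes were lower (8.37% of all protein-coding genes were) and 1 higher, with a median of -0.70 in trametinib and -0.65 in DMSO. Here YAPKO1 minus parental was -0.65 in DMSO, sgCON minus parental 0.03 and YAPKO2 minus parental -0.08, and 26 of the 55 were higher in YAPKO2 than in YAPKO1 in trametinib. From TMEM74B to BTBD3 on chromosome 20, 34 of 55 genes were lower and 0 higher, with a median of -0.55, and 29 were higher in YAPKO2 than in YAPKO1. In DMSO YAPKO1 minus parental was -0.46 there, sgCON minus parental 0.03 and YAPKO2 minus parental 0.16. PCNA and the ribosome biogenesis gene NOP56 (212, 221 and 197 in sgCON, 117, 104 and 132 in YAPKO1) lie in this run. So do SNAP25 and JAG1, whose falls are given under other observations. On chromosome 19, 10 of 29 genes from ZNF432 to ZNF765 were lower and 0 higher, with a median of -0.75. Over this run the median of sgCON minus parental was 0.48 in DMSO and of YAPKO1 minus parental -0.17. On chromosome 12 the run from CAPS2 to UBE2N, with 8 of 36 lower and 1 higher, holds DCN and LUM. On chromosome 9 the run from IGFBPL1 to OSTF1, with 6 of 25 lower and 3 higher, holds ANXA1. The remaining run, from GPX8 to PPWD1 on chromosome 5, had 2 of 26 lower and 0 higher. Chromosome 6 held no such run, yet over its whole length 105 of 597 protein-coding genes were lower (17.6%) and 24 higher (4.02%). There the median of sgCON minus parental was 0.20 in DMSO and of YAPKO1 minus parental -0.01. The number of DNA copies was not analysed here.

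**Figure D5:**
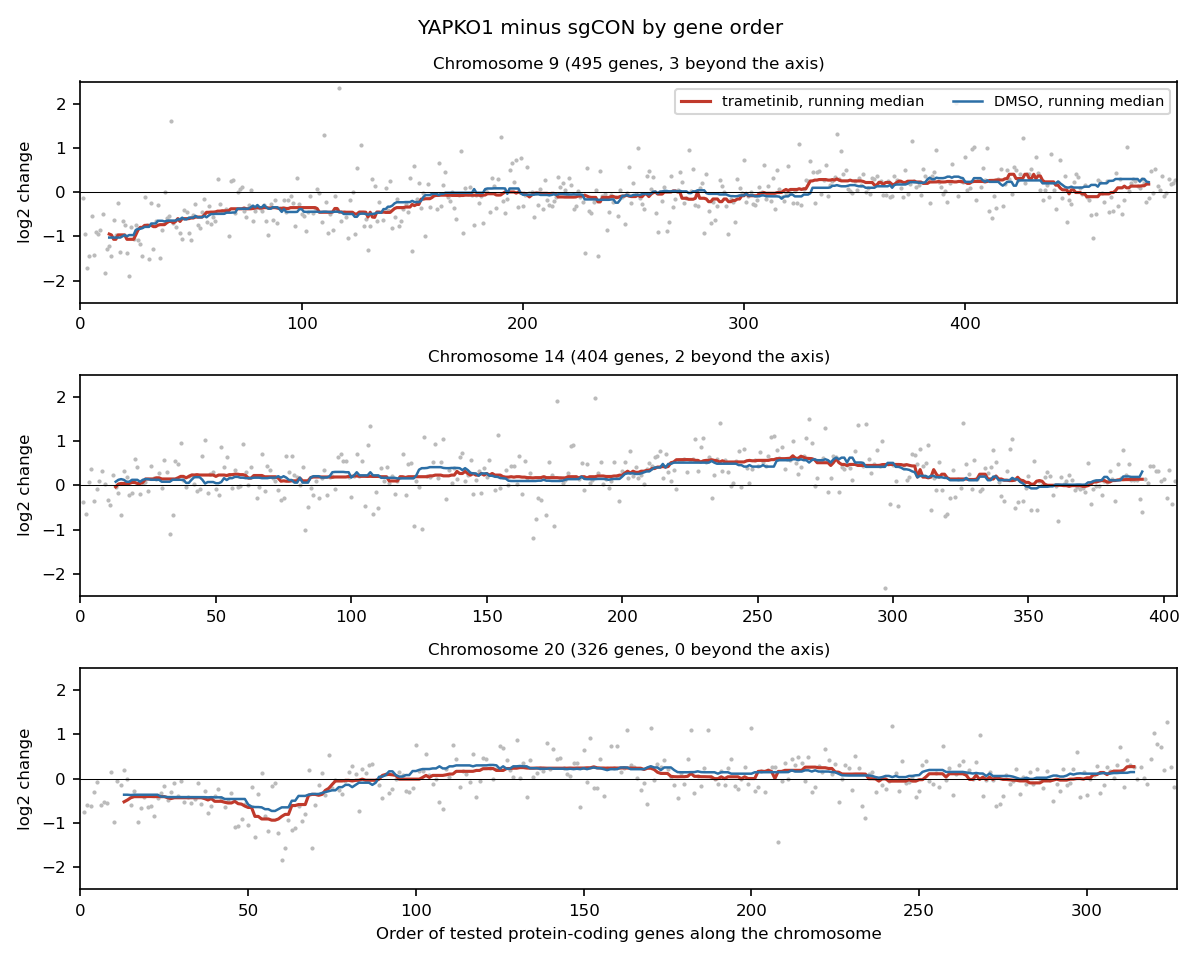
Log2 change, YAPKO1 minus sgCON, of tested protein-coding genes in their order along chromosomes 9, 14 and 20; grey points are single genes in trametinib, and lines are running medians over 25 genes in trametinib (red) and DMSO (blue). Red and blue lines move together through the run on chromosome 14 (median 0.53) and those on chromosomes 9 (-0.70) and 20 (-0.55).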

How the data were processed

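The authors deposited FPKM in 2 tables of 57820 genes by 21 libraries, made with STAR 2.4.2 and RSEM 1.3.0 on hg19, per the submitters' processing notes; strand use in counting is not given in the sources used here, so antisense pairs are uncertain. The calibrated table equals the other times 1 factor per library (0.927 to 1.07). RNA was total RNA without ribosomal RNA, per the labels' protocols. Parental columns, headed only DMSO and a number, were mapped by elimination. The filter kept genes that reached 1 FPKM in 3 or more libraries. Log2(FPKM + 0.5), after median-ratio scaling, was fitted with limma 3.58.1 (R 4.3.3), with 7 group means over 21 libraries, eBayes with a trend, two-sided tests and Benjamini-Hochberg adjustment over all genes, called under 0.05. The filter was first run on scaled values and replaced by the deposited values after results had been seen. Members, lists and tests were chosen with earlier results of these data known; PTRF, SDPR and PRKCDBP were matched through RefSeq synonyms after results were seen. Named genes were YAP1, the 15 largest rises and falls without overlap between libraries, up to 6 of each from the response difference, up to 4 of each list and defining pathway members; others named were chosen after their values were seen. Gene types, transcript GC and guide positions came from GENCODE v29 (GRCh38), and promoters from RefSeq (GRCh38.p14). Scripts were tested on simulated data. Each result was recomputed with a pseudocount of 0.1 or 1, without the filter, without scaling, after quantile normalization, from the calibrated table, with a fit of just the groups compared, with a replicate block, with GC correction (spline, 5 df), with a log2 threshold of 1 and without each library. UHRF1, BOP1, NEFL, PECAM1 and 15 histone genes were not analysed here, and a few further genes that met the naming rule are not reported here.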

Additional observations from a re-analysis of the deposited data

Results flagged for a closer look

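In 14 named genes the difference between YAPKO1 and sgCON was not the same in trametinib and DMSO by limma's test of the response difference (adjusted p under 0.05). Values are response differences on the log2 scale, YAPKO1 minus sgCON. They were negative for DCN (-2.54), SHISA3 (-1.82), CDH11 (-1.80), the serotonin receptor HTR7 (-1.11), the mitotic kinase AURKA (-0.57) and the protein kinase C gene PRKCA (-0.50). They were positive for MARCH11 (2.05), SCUBE1 (1.94), the sodium chloride transporter SLC12A3 (1.83), KCNAB1 (1.74), the organic anion transporter SLCO2B1 (1.69), IGSF1 (1.34), ALK (1.17) and the sodium channel subunit SCN3B (1.22).

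AURKA stood at 44.6, 44.4 and 41.8 FPKM in sgCON and 50.2, 48.4 and 51.1 in YAPKO1 in DMSO, where the change was 0.19 (adjusted p = 0.115), and at 41.6, 39.9 and 42.05 and 33.8, 29.5 and 31.8 in trametinib (-0.37). PRKCA was lower in YAPKO1 in both, by -0.45 in DMSO and -0.95 in trametinib. SLC12A3 was at or near 0 in the sgCON trametinib libraries (0, 0.0294 and 0.0192) and at 1.71, 1.33 and 1.11 in YAPKO1, and it passed the filter on low values only through the latter. SLCO2B1 stood at 3.02, 4.63 and 3.58 in sgCON and 0.0671, 0.0808 and 0.445 in YAPKO1 in DMSO, and at 0.505, 0.548 and 0.413 and 0.0491, 0 and 0 in trametinib, levels around the pseudocount.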

How the results depend on the processing

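The count of genes called in trametinib was 2411. It was 2042 to 3499 over the other settings with the same threshold, 669 with a log2 change of at least 1 in size, 2412 of 16090 with the filter on scaled values (added after seeing the data), and 1418 to 2143 without each library in turn. In DMSO (1927) it was 737 with only the groups compared, 3042 with GC correction and 1214 to 2110 without each library. For the response difference (40) it was 8 with only the groups compared, 24 with a pseudocount of 0.1, 23 from the calibrated values, 18 with the replicate block, 153 with GC correction, 116 with GC correction and the block, and 11 to 39 without each library. YAPKO2 against sgCON (5849) gave 2584 with only the groups compared and 4207 to 7915 without each library. YAPKO2 against YAPKO1 (2281) gave 287 and 1549 to 3955, the highest without YAPKO2 trametinib replicate 3. Of 162 named genes 149 were called, 114 of them under every setting, and 0 called genes turned sign. Of the genes not called, WWTR1 was 0.0195 with GC correction, with and without the block; SPRY2 was 0.0219 with quantile normalization; ETV4 was -0.0608 with GC correction, with and without the block, and -0.0332 to 0.256 without each library, the lowest without YAPKO1 replicate 1; ETV5 was -0.362 to 0.121 without each library, above 0 without sgCON replicate 2 or 3 or YAPKO1 replicate 3; HAND2 was -0.112 to 0.0151, above 0 without sgCON replicate 3 or YAPKO1 replicate 2. Medians of 9 lists turned sign in some setting. Replicate numbers did not pair libraries (correlations of 0.0037, 0.0307 and 0.0087 between same-numbered YAPKO1 and sgCON libraries), and the replicate block gave 2042 genes. The cause of these shifts was not tested. Depth is unknown, and values under the pseudocount of 0.5 limit the changes of low genes.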

Other observations

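Most of the further gene groups had called members in both directions. Of all genes tested 7.77% were higher and 7.11% lower, and some groups lay near these shares. For example, 6.90% of lysosome and autophagy genes were higher, and 5.88% of histone genes were higher and 5.88% lower. Of 24 Notch, neurogenic and ID genes 7 were higher and 3 lower in YAPKO1 in trametinib, with a median of 0.06. After GC correction 5 were higher and 7 lower, with a median of -0.10. The Notch ligand DLL3 rose from 7.08, 6.93 and 6.65 to 31.9, 25.7 and 30.8 FPKM (2.01), while the ligand JAG1 fell from 0.944, 1.1 and 1.19 to 0.304, 0.317 and 0.303 (-0.96). Of 20 synaptic vesicle genes 2 were higher (4 after GC correction, 1 without YAPKO1 replicate 3) and 2 lower. The vesicle protein gene SYN2 rose from 3.02, 3.28 and 4.57 to 15.9, 16.5 and 19.6 (2.12), and SNAP25, a part of the fusion machinery, fell from 4.83, 4.42 and 5.53 to 1.86, 1.83 and 2.02 (-1.17). Of 13 granin and neuropeptide genes 3 were higher (5 after GC correction) and 2 lower. NPY fell from 3.77, 4.02 and 6.02 to 1.96, 1.46 and 1.64 (-1.20), against a parental mean of 48.8.

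Of 23 antigen presentation and interferon genes 3 were higher and 4 lower; the lower count was 2 without sgCON replicate 1 or YAPKO1 replicate 3. BST2, a membrane protein that tethers enveloped viruses, rose from 2.47, 2.57 and 3.39 to 12.3, 10.99 and 11.8 (1.89), with a parental mean of 17.6. Of 24 glutathione and NRF2 target genes 2 were higher and 4 lower, the higher count being 1 without any 1 library other than sgCON replicate 3, and SRXN1, which repairs oxidised peroxiredoxins, fell from 14.5, 15.8 and 15.5 to 7.33, 7.24 and 7.79 (-0.99). Of 25 cholesterol synthesis genes 1 was higher (0 without any 1 of the 6 libraries) and 4 lower (8 after GC correction). Of 27 ATF4 and unfolded protein response genes 1 was higher (0 without sgCON replicate 1) and 4 lower. Of 29 lysosome and autophagy genes 2 were higher and 0 lower by limma's test; 4 were lower after GC correction and 1 without YAPKO1 replicate 2. Of 12 BCL2 family genes 1 was higher and 2 lower. In the BCL2 family the activator gene BMF rose from 7.27, 7.51 and 7.13 to 13.2, 14.8 and 15.9 (0.95), and BAX and BBC3 were lower. Of 21 integrin and laminin genes 2 were higher and 3 lower; the higher count was 1 without any 1 of the 6 libraries, and the lower count 1 without sgCON replicate 1 or 2 or YAPKO1 replicate 1 or 3. ITGA9 rose from 0.267, 0.186 and 0.211 to 2.18, 2.41 and 2.02 (1.904). Of 17 replication-dependent histone genes 1 was higher (2 after GC correction or without YAPKO1 replicate 2) and 1 lower. HIST1H4C went from 50.1, 69.4 and 51.2 to 13.7, 11.01 and 14.7 (-2.07), with a parental mean of 6.16. Of 4 tested HOX genes and 3 tested epithelial markers 0 were called.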
